A study of Mus musculus with 4 samples.

Results

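The ribosomal protein (Rp) pseudogenes of the mouse are gene copies that carry the name of a ribosomal protein gene followed by -ps and a number. The deposited table lists 283 of them among 53465 genes. The 160 members described here were selected on measured values, since a value above 0 in at least 1 of the 4 libraries was required, and the other 123 were at 0 in all 4 libraries. By annotated class, 149 of the 160 were processed pseudogenes, 4 were transcribed processed pseudogenes and 7 were listed as protein-coding. Of the members, 100 carried the name of a large-subunit (Rpl) gene and 60 that of a small-subunit (Rps) gene, and they belonged to 49 parent genes.

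A processed pseudogene arises when an mRNA is copied into DNA by reverse transcription and inserted elsewhere in the genome, so that it usually lacks introns and the promoter of its parent gene. Ribosomal protein genes are among the most abundantly transcribed genes of a cell and have left very many such copies in mammalian genomes. Because a recent copy is nearly identical in sequence to its parent mRNA, a short sequencing read may fit both places equally well.

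The libraries were labelled as cultured female germline stem cells (FGSCs) of the mouse ovary. Cells of the shNC group carried a control short hairpin RNA, and cells of the shNAT10 group carried a hairpin against *Nat10*, the enzyme that writes N4-acetylcytidine into RNA. Each group had 2 libraries, and both hairpins were delivered by lentivirus with drug selection afterwards. The study ran long RNA-seq of these groups beside a sequencing of RNA-RNA contacts and compared gene expression between them. Its stated aim was to learn whether N4-acetylcytidine acts on FGSC development through RNA-RNA interactions. The deposited values are FPKM, fragments scaled by exon length and by a factor of each library. Where 4 values stand in a row below, they follow the order shNC replicates 1 and 2, then shNAT10 replicates 1 and 2. The study describes the libraries of a group as biological replicates, but the labels do not say whether they came from separate cultures, so p-values measure only the spread between these libraries.

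The target of the hairpin, *Nat10* (ENSMUSG00000027185), had 7.79, 5.42, 2.95 and 3.04 FPKM, so that both knockdown libraries lay below both controls. The difference of shNAT10 from shNC was -1.09 ± 0.21 (log2, SE, n = 2 per group, limma with Benjamini-Hochberg adjusted p = 0.123). It passed the unadjusted threshold used below, but not without shNAT10-1 (-1.07) or without shNAT10-2 (-1.11). Of 8 germline markers, *Pou5f1*, *Dazl*, *Dppa3* and *Tfap2c* were at 0 in all 4 libraries, *Ddx4* had 2 fragments in all, and *Ifitm3* alone had a mean of at least 1 FPKM, so most defining markers of the labelled cell type were absent or nearly so. The summed germline markers were at 9.57, 22.3, 27.3 and 33.8 FPKM. Of 5 granulosa cell markers 0, and of 5 fibroblast markers 3, reached a mean of 1 FPKM. All 5 leukocyte markers and 4 of 7 mast cell markers had a mean of at least 1 FPKM. *Cpa3*, a mast cell protease, lay between 245 and 272 FPKM. The summed leukocyte markers were at 290, 320, 259 and 274 FPKM, with 3 of the 5 called lower in shNAT10 and 0 higher. The summed mast cell markers were at 312 to 323 FPKM in all libraries, mostly *Cpa3*, while *Kit* (24.5, 21.2, 14.5 and 15.6 FPKM) and *Gata2* (41.5, 38.6, 31.9 and 31.6 FPKM) were called lower and *Ms4a2* (0.938, 0.539, 3.77 and 3.13 FPKM) higher. Of the fibroblast markers, *Pdgfra* (6.74, 5.08, 10.8 and 10.2 FPKM) and *Col3a1* (0.677, 0.575, 1.16 and 1.51 FPKM) were called higher and 0 lower. The part of other cell types in the results below was not tested, and in bulk RNA fewer cells of a type and less RNA per cell cannot be told apart.

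Whole fragments could be recovered from the FPKM values, with 11057933 to 14902426 fragments per library. Annotated loci that hold rRNA sequence took 38.7% and 29.8% of the fragments in shNC and 18.3% and 20.2% in shNAT10. The part of this difference in the results below was not tested. The members together held 28242, 31751, 26269 and 30771 fragments.

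How closely a member resembles its parent bears on how well reads can be assigned to it. The windows of 30 bases below come from the GENCODE M21 transcripts of GRCm38 (mm10) and show 1 of the bases at which each of 6 members differs from its parent. These 6 were chosen because 4 of them had the highest levels and the other 2 are described below for their ratio to the parent. Capitals mark the bases that differ, and substitutions give the base of the parent, its position counted from 1 at the first base of the parent's start codon, and the base of the pseudogene. *Rpsa-ps10* (chr3:150072658-150073542, minus strand) carries C25A, *Rpl34-ps1* (chr6:71124610-71124963, plus strand) T132C, *Rpl15-ps2* (chr9:72060937-72061549, plus strand) G15A and *Rpl3-ps1* (chrX:13202571-13203780, plus strand) C57A. *Rps19-ps6* (chr12:110898114-110898551, plus strand) carries C6T and *Rpl7a-ps3* (chr15:36308149-36308944, minus strand) G43A.
Rpsa: gcccttgacgtcctgCagatgaaggaggag
Rpsa-ps10: gcccttgacgtcctgAagatgaaggaggag
Rpl34: gaaagcacctaaatcTgcatgtggcgtgtg
Rpl34-ps1: gaaagcacctaaatcCgcatgtggcgtgtg
Rpl15: gggtgcatacaaGtacatccaggagctatg
Rpl15-ps2: gggtgcatacaaAtacatccaggagctatg
Rpl3: gggcttcctgcctcgCaagcgcagcagccg
Rpl3-ps1: gggcttcctgcctcgAaagcgcagcagccg
Rps19: atgccCggagttactgtaaaagacgttaac
Rps19-ps6: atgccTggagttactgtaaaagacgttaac
Rpl7a: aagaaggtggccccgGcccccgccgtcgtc
Rpl7a-ps3: aagaaggtggccccgAcccccgccgtcgtc

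Single bases such as these are what separates the copies. *Rpsa-ps10* differed from the *Rpsa* transcript at 6 bases, *Rpl34-ps1* at 2, *Rpl15-ps2* at 8, *Rpl3-ps1* at 2, *Rps19-ps6* at 5 and *Rpl7a-ps3* at 12. A stretch of 150 bases, the length of 1 read, was identical to the parent at 33.7% of the positions of *Rpsa-ps10*, 17.6% of *Rpl34-ps1*, 25.2% of *Rpl15-ps2* and 80.4% of *Rpl3-ps1*. It was identical at 40.5% of the positions of *Rps19-ps6* and 6.49% of *Rpl7a-ps3*. How reads with more than 1 best place were counted is not given in the sources used here, so the split between a member and its parent is uncertain for every level below.

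The level of a member went with its likeness to the parent. Identity over the aligned bases had a median of 98.5% among 157 members above 0 and of 91.5% among 120 Rp pseudogenes at 0, counting those aligned over at least 50% of their length and leaving out 4 with a shorter match. Of these, all 56 with at least 99% identity were above 0, as were 37 of 39 between 98% and 99%, 35 of 65 between 95% and 98%, 18 of 61 between 90% and 95% and 11 of 56 under 90%. Among members above 0, the rank correlation of identity with the mean FPKM was 0.46 (Spearman's rho across these 157 genes of the same 4 libraries, a description, since genes are not independent replicates). Every 1 of the 18 members at 10 FPKM or more had an identity of at least 95%, and no gene under 90% identity reached 1 FPKM.

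**Figure D1:**
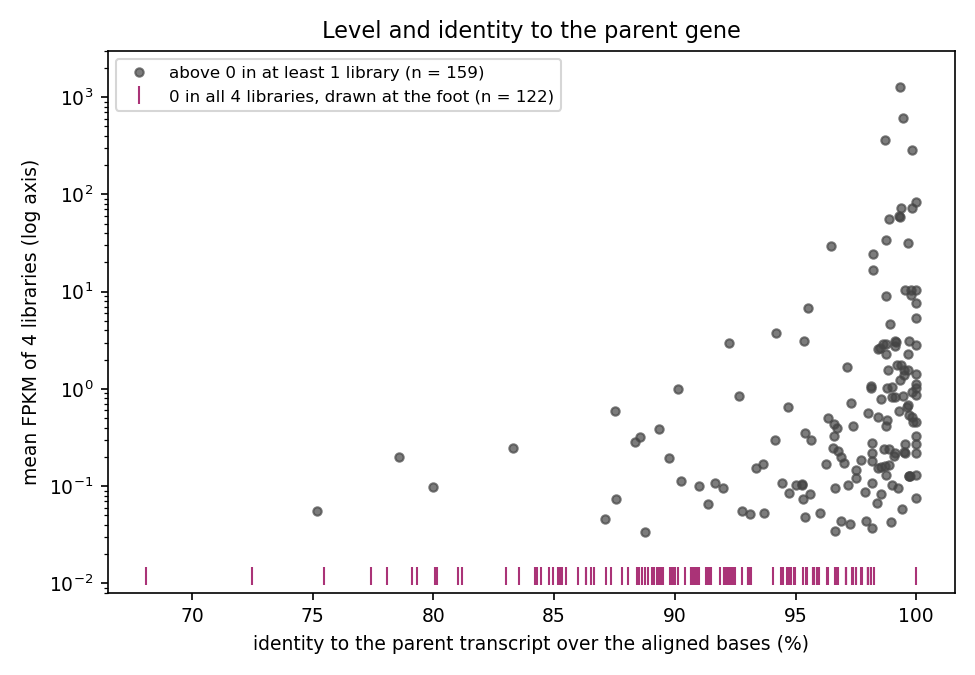
Mean FPKM over the 4 libraries (log axis) against the percentage of aligned bases identical to the parent transcript, for 159 members above 0 (points) and 122 Rp pseudogenes at 0 in all libraries (ticks at the foot, not on the scale), including 4 matched over less than 50% of their length. High levels stand at the right edge, where levels at 99% identity or more run up to 1270 FPKM.

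Levels differed widely among exact copies. A total of 13 members were identical to a parent transcript over their full length, and their mean FPKM ran from 0.130 (*Rps13-ps2*) to 83.8 (*Rpl31-ps8*), with a median of 1.14. *Rpl31-ps8* stood at 11.05% of the FPKM of *Rpl31*, whereas *Rpl15-ps3*, also an exact copy, stood at 0.0803% of the FPKM of *Rpl15*. An open frame of the parent's full length was found in 89 of the 159 members above 0 (56.0%) and in 31 of the 122 at 0 (25.4%). The median exon length was 474 bases above 0 and 441 bases at 0.

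Rp pseudogenes were more often above 0 than other pseudogenes of the same naming. Among the 920 genes of other families named -ps with a number, 130 (14.1%) were above 0 in at least 1 library, against 56.5% of the Rp pseudogenes. This share is the selection itself and was not tested. The other families were taken by name alone, so their annotated class and the level of their parent genes may differ. By position, 92 members lay between genes, 60 within an intron of another gene and 7 overlapped an exon of another gene, while 1 was not found in the annotation. Their median levels were 0.307 FPKM between genes, 0.409 FPKM in introns and 3.03 FPKM with an exon overlap. A single exon was annotated for 157 members, and the members were spread over 20 chromosomes.

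Levels were very uneven. Of the 160 members, 78 were above 0 in all 4 libraries, 54 had a mean of at least 1 FPKM, 18 of at least 10 and 10 of at least 50, and the median was 0.372 FPKM. The 4 highest members held 85.7%, 83.3%, 81.3% and 80.8% of all member fragments. *Rpsa-ps10* by itself held 50.5%, 49.6%, 46.6% and 48.8%. A mean FPKM of at least 0.1, the filter of the tests, was met by 131 members. *Rpl34-ps2* (0.102 FPKM, 2 fragments) and *Rpl21-ps1* (0.102 FPKM, 3 fragments) lay just inside it, and *Rpl31-ps5* (0.0996 FPKM, 2 fragments) and *Rpl15-ps4* (0.0972 FPKM, 3 fragments) just outside. Of the 131, 78 had at least 10 fragments over the 4 libraries and 53 had fewer.

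Against the parent gene, most members were minor. The median member stood at 0.266% of the FPKM of its parent, and 116 of 160 stood under 1%. On the FPKM scale 5 members exceeded their parent, namely *Rpl34-ps1* (731%), *Rpsa-ps10* (194%), *Rps18-ps3* (148%), *Rpl3-ps1* (128%) and *Rpl15-ps2* (105%). FPKM divides the parent's fragments by all its annotated exon bases, which for *Rpl34* come to 2643 and for *Rpsa* to 3170. Per base of the 1 parent transcript that the member was aligned with, 2 members exceeded the parent, *Rpl34-ps1* (173%) and *Rpsa-ps10* (117%), while *Rpl3-ps1* stood at 54.5%, *Rpl15-ps2* at 37.4% and *Rps18-ps3* at 33.7%.

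**Figure D2:**
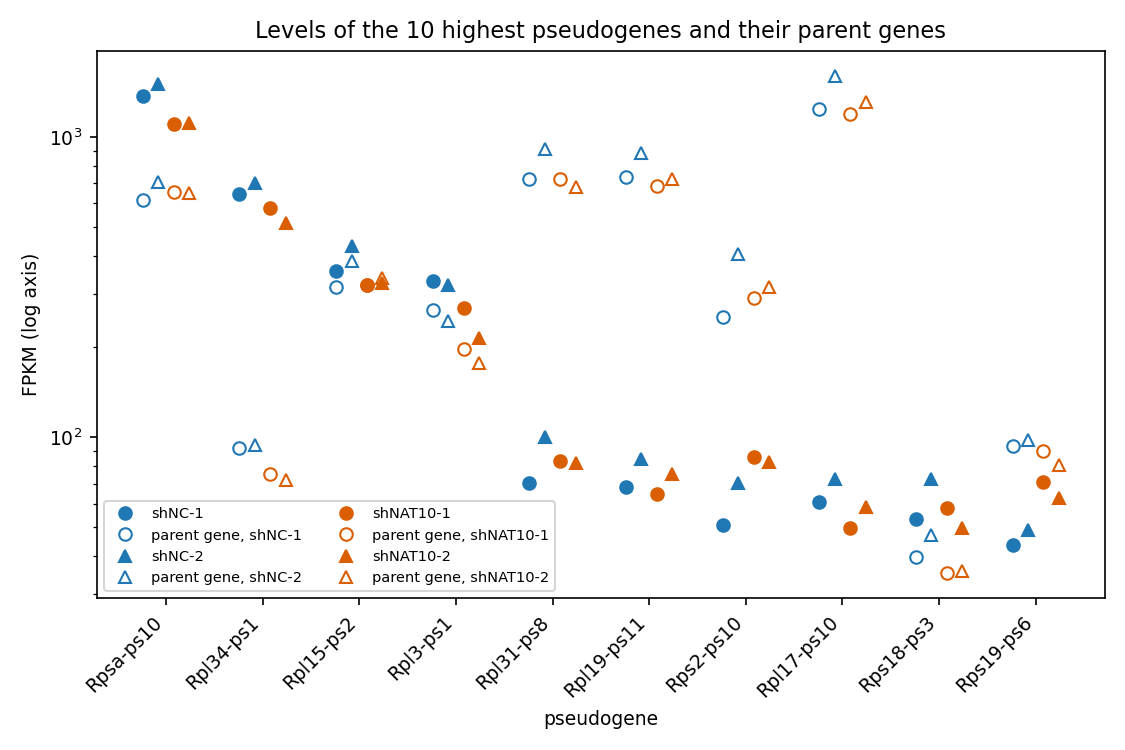
FPKM (log axis) of the 10 members with the highest mean level (filled) and of their parent genes (open) in each library, with circles for replicate 1 and triangles for replicate 2. The filled points of *Rpsa-ps10*, *Rpl34-ps1*, *Rpl3-ps1* and *Rps18-ps3* lie above the open points in every library, and those of *Rps2-ps10* and *Rps19-ps6* are higher in shNAT10 than in shNC.

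The comparison of shNAT10 with shNC used limma on log2(FPKM + 0.1) over 20116 genes, and a gene was called at a fold change over 1.2 with an unadjusted p of at most 0.05. Of the 131 members tested, 25 (19.1%) were called, against 16.2% of all genes tested. A whole group was at 0 in 6 of the 25, which passed the filter through the other group alone and had 3 to 8 fragments, and 19 were called without them (6 higher and 13 lower). The 9 members called higher in shNAT10 make 6.87%, against 8.41% of all genes, and the 16 called lower make 12.2%, against 7.83% of all genes. No member had a Benjamini-Hochberg adjusted p under 0.05 in limma (0 of 131, smallest 0.109, with 25 at an unadjusted p under 0.05). Of the 20116 genes in that fit, 88 had one. A limma-voom fit to the recovered fragments gave 4 of 130 members an adjusted p under 0.05, against 7.89% of all genes in that fit. Without shNAT10-1 15 members were called, and without shNAT10-2 also 15. The share of all genes called in these fits was not counted. The groups did not overlap in 51 of the 131 members (38.9%), against 48% of all genes tested.

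The median of members with more fragments lay near that of all 49 parent genes, a likeness that was not tested. Members with few fragments brought the median over all members closer to 0. The median log2 fold change was -0.12 over the 131 members and -0.03 when the 15 members at 0 in a whole group were set at the bound that 3 fragments per library allow. That bound is a log2 fold change of 0 for all of them but *Rpl36-ps2* and *Rpl10-ps2*. The median was -0.20 over the 78 members with at least 10 fragments and -0.24 over the 28 with at least 100, beside 0.01 over all genes tested and -0.07 over 1652 processed pseudogenes of any family. The 49 parent genes had a median of -0.20, with 47 of 49 below 0, 14 called lower and 0 called higher. The 80 cytosolic ribosomal protein genes had a median of -0.24, with 21 called lower and 0 called higher. As a share of all fragments on members and ribosomal protein genes together, the members made up 4.51%, 4.30%, 4.17% and 4.10%.

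A difference within the shNC group was about as large as these medians. shNC-2 was above shNC-1 by a median of 0.23 (log2) over the tested members, by 0.21 over the ribosomal protein genes and in 9 of the 10 highest members. Without shNC-1 the median of the members was -0.27, and without shNC-2 it was -0.13.

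Among the small-subunit members, *Rpsa-ps10* (ENSMUSG00000047676) was by far the most abundant. Its parent *Rpsa* encodes a protein of the small subunit that is also known as the laminin receptor. *Rpsa-ps10* stood at 1372, 1499, 1101 and 1108 FPKM. Both shNC libraries lay above both shNAT10 libraries. The log2 fold change was -0.38 ± 0.12 (SE, limma adjusted p = 0.243; limma-voom adjusted p = 0.00273). The parent *Rpsa* stood at 614, 706, 654 and 649 FPKM, with overlapping groups and a log2 fold change of -0.02. The ratio of the member to its parent changed by -0.36 ± 0.14 on the log2 scale (limma adjusted p = 0.480; limma-voom adjusted p = 0.0339) and was not called, though it was under 4 of 15 alternatives, among them both other pseudocounts. The call of the member was lost without shNAT10-1 (-0.37) and without shNAT10-2 (-0.38), at nearly the same size, and also with no filter on low values and in limma without a variance trend.

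*Rps19-ps6* (ENSMUSG00000096942) lies in an intron of *Tecpr2* on the same strand, a gene at a mean of 1.21 FPKM. It is a copy of *Rps19*, which encodes a small-subunit protein known for its mutation in Diamond-Blackfan anaemia. The member stood at 43.5, 48.8, 70.8 and 62.7 FPKM. Both shNAT10 libraries lay above both shNC libraries, and the log2 fold change was 0.53 ± 0.11 (limma adjusted p = 0.139; limma-voom adjusted p = 0.0361). *Rps19* itself stood at 93.6, 97.5, 89.8 and 80.7 FPKM, a log2 fold change of -0.17 that was not called. The ratio of member to parent was called higher, by 0.70 ± 0.17 (limma adjusted p = 0.441; limma-voom adjusted p = 0.00507). The call of the member was lost without shNC-1 (0.45) and without shNAT10-1 (0.44), and that of the ratio without shNC-1 (0.64), without shNC-2 (0.75) and in limma without trend.

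*Rps2-ps10* (ENSMUSG00000091957), a transcribed processed pseudogene of *Rps2*, lies in an intron of *Pde6a* on the opposite strand, a gene at a mean of 0.0212 FPKM. It stood at 51.0, 70.3, 86.1 and 82.7 FPKM, without overlap of the groups. The log2 fold change was 0.49 ± 0.17 (limma adjusted p = 0.270; limma-voom adjusted p = 0.0179). *Rps2* spread from 251 to 407 FPKM within shNC and stood at 291 and 316 FPKM in shNAT10. The ratio changed by 0.57 ± 0.22 (limma adjusted p = 0.480; limma-voom adjusted p = 0.00507) and was not called, though it was under 5 of 15 alternatives, among them both other pseudocounts. The call of the member was lost without shNAT10-1 (0.47), without shNAT10-2 (0.52) and in limma without trend, and its log2 fold change was 0.26 without shNC-1 and 0.73 without shNC-2.

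*Rps18-ps3*, the other small-subunit member among the 10 highest, stood at 53.2, 72.6, 57.8 and 49.8 FPKM. Its groups overlapped, and shNC-2 was the highest library.

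Of the large-subunit members, *Rpl34-ps1* (ENSMUSG00000068396) stood at 646, 700, 578 and 515 FPKM. Both shNC libraries were higher, but the log2 fold change of -0.30 ± 0.12 missed the threshold (limma adjusted p = 0.307; limma-voom adjusted p = 0.0673), though it was called under 4 of 15 alternatives. Its parent *Rpl34* went from 91.9 and 94.1 FPKM to 75.4 and 72.2 FPKM and was called lower at -0.33 ± 0.08 (limma adjusted p = 0.170). The ratio of the pair differed by 0.03 ± 0.12 (limma adjusted p = 0.971).

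*Rpl3-ps1* (ENSMUSG00000084349) is a copy of *Rpl3*, whose protein lies close to the catalytic centre of the ribosome. It stood at 330, 320, 269 and 213 FPKM, and was called lower at -0.44 ± 0.14 (limma adjusted p = 0.243; limma-voom adjusted p = 0.00470). *Rpl3* was called lower by nearly the same amount, at -0.45 ± 0.10, from 266 and 244 FPKM to 196 and 177 FPKM. The ratio of the pair differed by 0.01 ± 0.16. The call of the member was lost without shNC-1 (-0.42), without shNC-2 (-0.46), without shNAT10-2 (-0.27) and in limma without trend.

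*Rpl15-ps2* (ENSMUSG00000098915) lies in an intron of *Tcf12* on the opposite strand, and *Tcf12* had a mean of 5.38 FPKM. The member stood at 356, 433, 321 and 327 FPKM. The groups did not overlap, but the log2 fold change of -0.28 ± 0.13 was not called (limma adjusted p = 0.375; limma-voom adjusted p = 0.114), though it was under 4 of 15 alternatives. Over these 15 it ran from -0.42 to -0.14. *Rpl15*, at 317, 387, 321 and 339 FPKM, was highest in the same library, shNC-2.

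The other large-subunit members among the 10 highest were not called. Under 1 of 15 alternatives each, *Rpl31-ps8* (without shNC-1, -0.28) and *Rpl17-ps10* (replicate number as a block) passed the threshold. *Rpl31-ps8*, the exact copy of *Rpl31*, stood at 70.0, 100.1, 83.3 and 82.0 FPKM, with both shNAT10 libraries between the shNC libraries. *Rpl19-ps11*, which shares 80 bases with an exon of *Gm27288*, ran from 64.8 to 84.2 FPKM with overlapping groups. *Rpl17-ps10* stood at 60.7, 72.2, 49.8 and 58.4 FPKM, without overlap and with a difference of -0.30 ± 0.13 (log2, limma adjusted p = 0.373).

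Counts of fragments show the same pairs without regard to exon length. A family is a parent gene with all its members above 0. *Rpsa-ps10* took 38.2%, 37.0%, 31.8% and 32.1% of the fragments of its family. *Rps19-ps6* took 4.15%, 4.45%, 6.84% and 6.73%, and *Rps2-ps10* took 9.34%, 7.97%, 12.9% and 11.7%. *Rpl15-ps2* took 21.8%, 21.7%, 19.8% and 19.3%. In these 4 families the groups did not overlap. Nor did they for *Rpl31-ps8* (2.16%, 2.44%, 2.55% and 2.65%) and *Rpl17-ps10* (1.99%, 1.83%, 1.70% and 1.82%), whereas those of *Rpl19-ps11* and *Rps18-ps3* overlapped. Chance separates 2 libraries from 2 in 33.3% of cases, and 48% of all genes tested had FPKM without overlap. *Rpl34-ps1* took 48.5%, 49.9%, 50.7% and 48.9%, and *Rpl3-ps1* took 32.1%, 33.3%, 34.3% and 31.4%, with overlapping groups. The 95% Wilson intervals of these shares reached at most 2.21 percentage points to either side over the 10 highest members and cover counting error only. With 2 libraries per group an exact permutation test cannot give a two-sided p under 0.333.

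**Figure D3:**
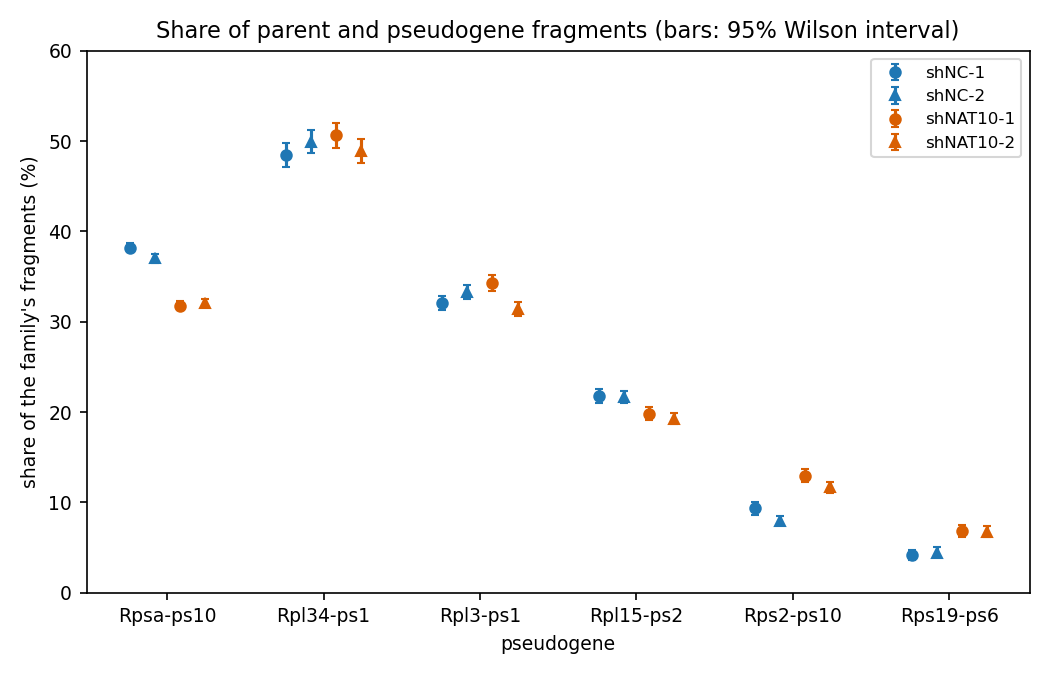
Share of the fragments of a family (parent gene and all its members above 0) that fell on the member, in percent, for 6 members in each library, with circles for replicate 1 and triangles for replicate 2 and 95% Wilson intervals as bars. The share of *Rpsa-ps10* is lower in both shNAT10 libraries (31.8% and 32.1%) than in both shNC libraries (38.2% and 37.0%), and the shares of *Rps2-ps10* and *Rps19-ps6* are higher.

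The ratio of member to parent was tested in the same way over 214 pairs of named pseudogenes and parents of all gene families. Of the 131 pairs with a member, 11 (8.40%) were called, 7 with a higher and 4 with a lower ratio in shNAT10, against 9.81% of all pairs. None of the member pairs had an adjusted p under 0.05 in limma (0 of 131, smallest 0.441, with 11 at an unadjusted p under 0.05). In limma-voom 3 of 130 had one, those of *Rps19-ps6*, *Rps2-ps10* and *Rpsa-ps10*. These were the only 3 (1.41%) among all 213 pairs in that fit, so the share over all pairs is no separate background. A group at 0 in both libraries was part of 6 of the 11 calls. Without shNAT10-1 5 pairs were called, and without shNAT10-2 4 pairs. The share of all pairs called in these fits was not counted. The log2 fold changes of member and parent had a correlation of 0.08 over the 131 pairs and of 0.36 over the 28 pairs with at least 100 fragments (Pearson's r across genes of the same 4 libraries, several of which share a parent, a description).

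**Figure D4:**
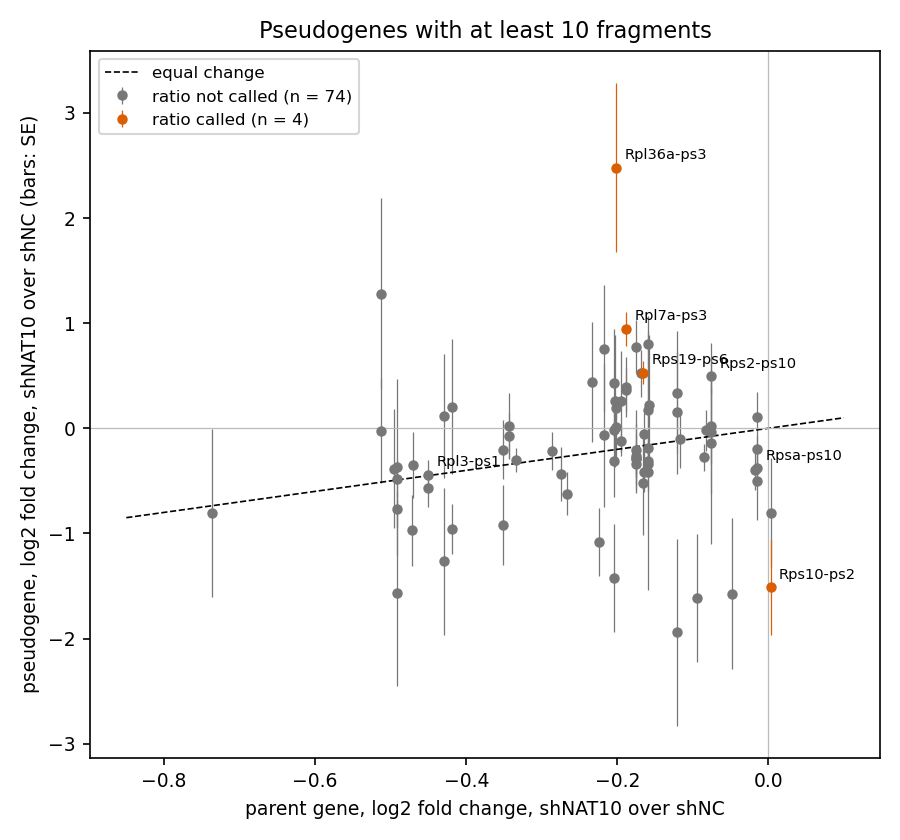
Log2 fold change of the member (vertical axis, bars give the SE) against that of its parent gene (horizontal axis), shNAT10 over shNC, for the 78 tested members with at least 10 fragments. The dashed line marks equal change, and the 4 orange points are pairs whose ratio was called, with *Rps19-ps6*, *Rpl7a-ps3* and *Rpl36a-ps3* above the line and *Rps10-ps2* below it.

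Among the 4 called ratios with at least 10 fragments, that of *Rpl7a-ps3* rested on 110 fragments. The member stood at 1.60, 1.90, 3.40 and 3.52 FPKM, without overlap. Its log2 fold change was 0.95 ± 0.16 (limma adjusted p = 0.109, the smallest of the members in that fit; limma-voom adjusted p = 0.176), and it was called under all 15 alternatives tried. Its parent *Rpl7a*, a large-subunit gene at 270, 395, 278 and 295 FPKM, was not called, and the ratio was called at 1.14 ± 0.42 (limma adjusted p = 0.480). The call of the ratio was lost under 9 of the 15 alternatives, among them each of the 4 left-out libraries, with values from 0.89 to 1.29 over all 15. *Rpl7a-ps10*, another copy of the same gene, stood at 2.13, 2.96, 3.09 and 3.43 FPKM, a log2 fold change of 0.36 that was not called.

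The other 2 pairs had few fragments. *Rps10-ps2* (20 fragments) stood at 0.858, 1.70, 0.482 and 0.263 FPKM, and its ratio to *Rps10* was called lower at -1.52 ± 0.54 (limma adjusted p = 0.480). *Rpl36a-ps3* (10 fragments) was at 0, 0.262, 1.49 and 0.610 FPKM, and its ratio was called higher at 2.68 ± 0.89 (limma adjusted p = 0.480). Over 14 alternatives the ratio of *Rps10-ps2* ran from -1.87 to -0.71 and lost its call in 6, among them each left-out library. That of *Rpl36a-ps3* ran from 1.03 to 4.41 and lost its call in 5, among them those without shNC-1, shNAT10-1 or shNAT10-2. A further 6 calls, *Rpl36-ps2*, *Rpl31-ps13* and *Rpl34-ps2* with a higher ratio and *Rpl31-ps10*, *Rpl10-ps2* and *Rpl13a-ps1* with a lower one, had a whole group at 0 and at most 8 fragments in all, too few to give a fold.

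The remaining members called by their own level had means of at most 24.1 FPKM. *Rps15a-ps3* went from 27.8 and 26.0 FPKM in shNC to 23.4 and 19.3 FPKM in shNAT10 (log2 fold change -0.34 ± 0.12), and *Rpl23a-ps3* from 12.4 and 10.1 FPKM to 8.51 and 6.13 FPKM (-0.62 ± 0.20). *Rpl10a-ps1*, an exact copy of *Rpl10a*, went from 5.21 and 9.27 FPKM to 2.92 and 4.19 FPKM (-0.97 ± 0.34), beside a parent called lower at -0.47 ± 0.10. Both copies of *Rpl30* that were called, *Rpl30-ps1* (-0.77 ± 0.17) and *Rpl30-ps10* (-0.48 ± 0.18), were lower beside a parent called lower at -0.49 ± 0.14, and *Rps12-ps3* (-0.96 ± 0.24) was lower beside *Rps12*, called lower at -0.42 ± 0.16. *Rpl3-ps2* was lower at -0.57 ± 0.18, *Rpl38-ps2* at -1.08 ± 0.32 and *Rpl31-ps9* at -1.42 ± 0.52. The parent of *Rpl3-ps2* was called lower, and those of *Rps15a-ps3*, *Rpl23a-ps3*, *Rpl38-ps2* and *Rpl31-ps9* were not called. *Rpl35a-ps2* (0.77 ± 0.25) and *Rps15a-ps7* (0.80 ± 0.27) were higher, also beside parents that were not called. In each of these 11 members the groups did not overlap (48% of all genes tested), which selection by the call favours. Each call was lost without at least 1 library. Sizes moved as well, for example from -1.38 to -0.56 in *Rpl10a-ps1* and from 0.45 to 1.15 in *Rps15a-ps7* over 15 alternatives. In limma-voom 9 of the 11 calls were lost and in limma without trend 7, and a call was lost under 2 (*Rpl30-ps1*) to 8 (*Rpl30-ps10*) of its alternatives. *Rps19-ps7*, with 7 fragments, was called lower, and *Rpl31-ps7* (lower) and *Rpsa-ps4* (higher) were called with a whole group at 0 and 3 and 6 fragments.

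By family, 16 parent genes had at least 4 members above 0, and these families held 102 of the 160 members. In 12 of the 16, 1 copy held over 50% of the summed FPKM, with the highest shares for *Rpl15-ps2* (99.8% of the summed FPKM of the members of its family), *Rpsa-ps10* (98.5%), *Rpl19-ps11* (95.6%), *Rps19-ps6* (93.4%) and *Rpl31-ps8* (89.4%). The largest family was that of *Rpl31*, with 14 of 23 copies above 0. Of the 13 tested, 1 was called higher and 3 lower, where 16.2% of all genes were called. All of these but *Rpl31-ps9* had a whole group at 0 and 3 to 5 fragments. The summed FPKM of the family was 79.8, 113, 89.0 and 93.1, so the shNAT10 libraries lay between the shNC libraries. The family of *Rps12* had 10 of 23 copies above 0, but its highest member, *Rps12-ps9*, had a mean of 1.56 FPKM. In the family of *Rps15a*, *Rps15a-ps5* (33.8 FPKM) and *Rps15a-ps3* (24.1 FPKM) were the highest of 6 copies, and the family of *Rpl17* was led by *Rpl17-ps10* (60.3 FPKM) and *Rpl17-ps5* (31.4 FPKM).

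In 1 family, members with at least 10 fragments were called in both directions. *Rps15a-ps7* (59 fragments) was called higher and *Rps15a-ps3* (484 fragments) lower, and these calls were lost under 5 and 7 of 15 alternatives. The difference between the members of a family was not tested. In the families of *Rpl21*, *Rpl17*, *Rpl15*, *Rpl19* and *Rpl9*, 0 members were called. *Rpl10*, the parent of 5 members above 0, stood at 83.8, 85.2, 60.8 and 57.5 FPKM and was called lower at -0.51 ± 0.08 (limma adjusted p = 0.0935). Its highest copy, *Rpl10-ps6*, had a mean of 0.934 FPKM and was not called, while *Rpl10-ps2*, with 7 fragments and both shNAT10 libraries at 0, was called lower.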

How the data were processed

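Long RNA-seq of 2 shNC and 2 shNAT10 libraries was analysed, grouped by the sample titles. The authors deposited FPKM per gene and library. Per the labels' processing notes cutadapt, HISAT2, DESeq2 and mm10 were used, and the counting program, its annotation and its use of strand are not given in the sources used here. The paper's methods describe rRNA depletion, the labels an isolation of mRNA. A second deposited table holds the authors' own comparison (log2 fold changes and p-values) and was not used. Median-ratio factors computed from the deposited FPKM were 1 in all 4 libraries.

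Exon lengths of GENCODE M21 turned 96.0% to 96.6% of the values under 50 fragments into whole fragments within 0.02, where chance gives 4%. Genes with a mean of at least 0.1 FPKM were compared on log2(FPKM + 0.1), a scale that understates changes of low genes, with limma 3.58.1 (lmFit, eBayes with trend, two-sided) in R 4.3.3, and called where the fold exceeded 1.2 and p was 0.05 or less. Ratios were tested as the difference of log2 values of member and parent within a library. The parent is the symbol before -ps, with *Rps3a1* for Rps3a and *Rps4x* for Rps4. Members were aligned with every parent transcript using Biopython 1.88 (local alignment), and the best match was kept. The code of the tests was checked beforehand on simulated data, none of which enters a reported value. Python 3.11.15, numpy 2.4.6, pandas 2.3.3, scipy 1.17.1 and matplotlib 3.10.9 were used. Libraries held 11057933 to 14902426 fragments, and 3 fragments were taken as the floor.

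Members, lists and tests were chosen with earlier results of these data known. Named by rule are *Nat10*, the 10 members with the highest mean FPKM, every member called by level or by ratio, families of at least 4 members above 0 and the 2 members nearest the filter on either side. Of these, 1 member is not reported here. *Rpl7a-ps10*, *Rps13-ps2*, *Rpl15-ps3* and *Rpl10* were chosen once their values were known. Alternatives comprised a pseudocount of 1 or 0.01, no filter, a mean of at least 1 FPKM, 3 other scalings, limma without trend, the replicate number as a block, limma-voom on recovered fragments, each library left out in turn, members with at least 10 fragments and members free of exon overlap. Scaling to the same fragments on protein-coding genes was chosen after seeing the data.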

Additional observations from a re-analysis of the deposited data

How the results depend on the processing

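The median-ratio rescaling changed no value, since its factors were 1 in all 4 libraries, and so it could test nothing. Against 25 members called, a mean of at least 1 FPKM gave 16 (of 54 tested), limma-voom 14, and leaving out 1 library in turn 15 to 29. Against 11 ratios called, a mean of at least 1 FPKM gave 5, members with at least 10 fragments 4, and leaving out 1 library in turn 4 to 11. The share of all genes or pairs called in these fits was not counted, so the counts do not set the members apart from other genes. Fewer genes or libraries entered these fits, and the cause of the change under limma-voom was not tested. Leaving out a library leaves a lone sample, assumed to vary like the others. The median log2 fold change of the members ran from -0.27 to -0.13 with 1 library left out and from -0.21 to -0.05 under the other alternatives. With an adjusted p under 0.05 there were 4 members and 3 ratios in limma-voom and none under the other alternatives.

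With the replicate number as a block, 25 members and 3 ratios were called, and the share of all genes called was again not counted. The deviations of same-numbered libraries had a correlation of 0.0071 over all genes, and the labels do not say that a number marks a shared batch, so the libraries share only a number.

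Sign changes occurred only in values not called with all 4 libraries. *Rpl31-ps8* was at 0.038 with the same protein-coding fragments (chosen after seeing the data) and at 0.014 with quantile normalization, and ran from -0.28 to 0.24 with 1 library left out. *Rpl19-ps11* ran from -0.27 to 0.032 and *Rps18-ps3* from -0.44 to 0.012. The ratio of *Rpl34-ps1* to its parent was at -0.022 with quantile normalization and ran from -0.018 to 0.085 with 1 library left out, that of *Rpl3-ps1* from -0.085 to 0.10 and that of *Rps18-ps3* from -0.048 to 0.20. Depth limits the 53 tested members with under 10 fragments.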

Other observations

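Of the 7 members listed as protein-coding, *Rpl36a-ps1* had the highest mean, at 2.59 FPKM, and 2 of the 7, *Rps12-ps3* and *Rpl27-ps3*, were exact copies of a parent transcript over their full length, at 1.01 and 0.866 FPKM. The 10 highest members included 9 processed pseudogenes and 1 transcribed processed pseudogene, *Rps2-ps10*.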
